A study of Mus musculus with 768 samples.

Results

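Follistatin, the activin subunits, TGFβ1, TGFβ2 and their receptors were followed across the days of a mouse cochlear organoid culture. The members are the 10 genes with the symbols Fst, Inhba, Inhbb, Acvr1b, Acvr2a, Acvr2b, Tgfb1, Tgfb2, Tgfbr1 and Tgfbr2, of 52636 genes listed in the deposited tables. All 10 were among the 17466 genes with enough reads to be tested, although Inhbb was read in at most 4 cells and Tgfb1 in at most 8 cells of any day. Cells came from the greater epithelial ridge (GER), the epithelium on the inner side of the cochlear hair cells, of mice on postnatal day 2. They were sorted by flow cytometry from animals with the alleles Fgfr3-CreERT2, Ai14-tdTomato and Sox2-GFP, grown as organoids, and picked singly for SmartSeq2 libraries on Day 1, Day 3 or Day 7. All groups shared these alleles, and no group of another genotype or age was included.

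The culture medium was the same for the 3 days. It held the TGFβ receptor inhibitor 616452 at 2 µM, the GSK3 inhibitor CHIR99021 at 3 µM and valproic acid, a histone deacetylase inhibitor, at 500 µM. It also held the growth factors EGF, FGF2 and IGF1 at 20, 10 and 50 ng/mL. No group was grown without the receptor inhibitor, so the part of the inhibitor in any value below was not measured. The groups were 3 cultures of Day 1, 3 of Day 3 and 5 of Day 7, each the sum of its cells, because cells of 1 culture share their source. The labels do not say whether the cultures came from separate animals, so p-values measure only the spread between these cultures.

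Activins are dimers of inhibin beta subunits, and Inhba and Inhbb encode 2 of these subunits. Follistatin, the product of Fst, is a secreted protein that binds activins and keeps them from their receptors. Activins bind the type II receptors ACVR2A and ACVR2B, which recruit the type I receptor ACVR1B, whereas TGFβ ligands bind TGFBR2, which recruits TGFBR1. Both routes lead to phosphorylation of SMAD2 and SMAD3, which enter the nucleus with SMAD4. In the developing cochlea, activin is known to promote hair cell differentiation and follistatin to oppose it.

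Cells with fewer than 50000 reads, fewer than 1500 genes detected or over 20% mitochondrial reads were removed, which retained 92.6% of the cells (94.8% of Day 1, 89.4% of Day 3 and 93.8% of Day 7). A culture held 37 to 86 retained cells and 26391412 to 72483565 reads on genes. Levels are given as CPM, the reads of a gene scaled to a library total common to the cultures. The epithelial gene Epcam was read in 100% of Day 1 cells, 99.6% of Day 3 cells and 99.7% of Day 7 cells. Summed CPM of 8 GER markers was 9584 to 14012 in Day 1 cultures, 4074 to 8170 in Day 3 cultures and 2213 to 4872 in Day 7 cultures. Tectb, which encodes β-tectorin, made up most of the Day 1 sum, at a mean of 8308, 3622 and 691.7 CPM over the 3 days. Tectb and Fabp7 were the 2 of these 8 markers that fell from Day 1 to Day 7 (edgeR adjusted p = 0.00166 and 0.0168), none rose, and the median log2 fold change of the 8 was -0.61. Of all tested genes 3.56% fell and 3.55% rose between these days. The 8 supporting cell markers summed to 449.6 to 735.02, 344.5 to 792.9 and 223.4 to 670.7 CPM, with S100a1 at a mean of 327.4, 387.7 and 223.7 CPM. Of 7 tested, Lgr5 and Slc1a3 fell from Day 1 to Day 7 (edgeR adjusted p = 0.00158 and 0.00353), and none rose. Sums of the 8 hair cell markers were 55.4 to 77.4, 45.7 to 329.1 and 22.9 to 41.9 CPM, with Myo6 at a mean of 42.1, 60.4 and 30.3 CPM. All 8 had a negative log2 fold change from Day 1 to Day 7 (median -4.66), and none had an edgeR adjusted p under 0.05. Pou4f3, Gfi1, Myo7a, Pvalb and Otof were at 0 CPM in Day 1 cultures 2 and 3. Their Day 1 level, and with it much of the median, thus rests on Day 1 culture 1. Pou4f3 and Pvalb fell from Day 3 to Day 7 (edgeR adjusted p = 0.0418 and 0.0465). The 3 epithelial markers summed to 2391 to 2903, 1815 to 2376 and 1178 to 1560 CPM. Of these, Epcam and Cdh1 fell from Day 1 to Day 7 (edgeR adjusted p = 0.0164 and 0.0242). For mesenchyme (7 markers) the sums were 4.01 to 25.6, 1.58 to 44.4 and 2.69 to 12.6 CPM, and for macrophages (5 markers) 4.09 to 9.03, 1.98 to 3.38 and 0.372 to 2.05 CPM. The 4 glial markers summed to 53.7 to 74.4, 46.4 to 62.1 and 77.3 to 88.03 CPM. Of 4 endothelial markers Pecam1, Cldn5 and Kdr were at 0 on each day, and Cdh5 had at most 0.466 CPM in a culture.

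The promoters are shown for Inhba, Tgfb2 and Acvr2a, the members that are called changed below and have an entry in the RefSeq promoter table (build GRCm38.p6), which held 9 of the 10 members and no entry for Fst. Each line gives the 250 bases before the annotated start, 5′ to 3′ on the strand of the gene. Capitals mark matches, on either strand, to TATAAA (the word of TATA boxes), CAGAC (the word of SMAD-binding elements), TGANTCA (the word of AP-1 sites) or CTTTGAT (the word of TCF/LEF sites), and no match overlapped another.
Inhba, chr13:16011601-16011850, plus strand: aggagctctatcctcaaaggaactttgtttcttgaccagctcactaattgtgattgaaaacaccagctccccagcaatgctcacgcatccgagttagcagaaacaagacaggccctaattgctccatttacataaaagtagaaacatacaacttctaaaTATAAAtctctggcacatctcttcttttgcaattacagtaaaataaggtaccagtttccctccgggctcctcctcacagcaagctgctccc
Tgfb2, chr1:186705990-186706239, minus strand: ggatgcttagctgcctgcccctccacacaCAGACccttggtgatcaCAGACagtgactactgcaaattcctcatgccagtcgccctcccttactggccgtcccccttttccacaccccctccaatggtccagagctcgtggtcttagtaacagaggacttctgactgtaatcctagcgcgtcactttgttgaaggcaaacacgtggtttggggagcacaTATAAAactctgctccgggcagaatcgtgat
Acvr2a, chr2:48813859-48814108, plus strand: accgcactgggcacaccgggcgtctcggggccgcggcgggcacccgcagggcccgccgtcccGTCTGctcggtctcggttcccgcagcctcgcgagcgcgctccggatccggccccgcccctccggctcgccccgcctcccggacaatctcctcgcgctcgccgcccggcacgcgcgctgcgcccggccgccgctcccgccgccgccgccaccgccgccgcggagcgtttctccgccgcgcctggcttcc
The word TATAAA began 91 bases before the start of Inhba and 31 bases before that of Tgfb2, and was found in 12.37% of 32851 mouse windows of this length. CAGAC or its reverse complement was found at 2 places in the window of Tgfb2 and at 1 in that of Acvr2a, and in 42.19% of windows. TGANTCA (6.75% of windows) and CTTTGAT (3.21%) were not found in the windows of the members. GC content was 43.2% for Inhba, 53.6% for Tgfb2 and 82% for Acvr2a, against a median of 52.4% over all windows. These matches are descriptions of letters in a window and were not measured as binding.

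From Day 1 to Day 7 the follistatin gene fell, the activin subunit gene Inhba rose, and Tgfb2 and the activin receptor gene Acvr2a fell. These 4 of 10 members were called by edgeR's quasi-likelihood test (Benjamini-Hochberg adjusted p under 0.05 over all genes tested), where 7.11% of all tested genes were called, 3.55% higher and 3.56% lower. For all 4 the cultures of the 2 days did not overlap, a separation that 17.8% of all tested genes had, with 8.71% higher and 9.06% lower on Day 7. The median log2 fold change of the 10 members was -1.17, with 2 above and 8 below 0, and that of all tested genes was 0.00. In the plot of levels per culture, Fst and Inhba move in opposite directions over the 3 days.

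**Figure D1:**
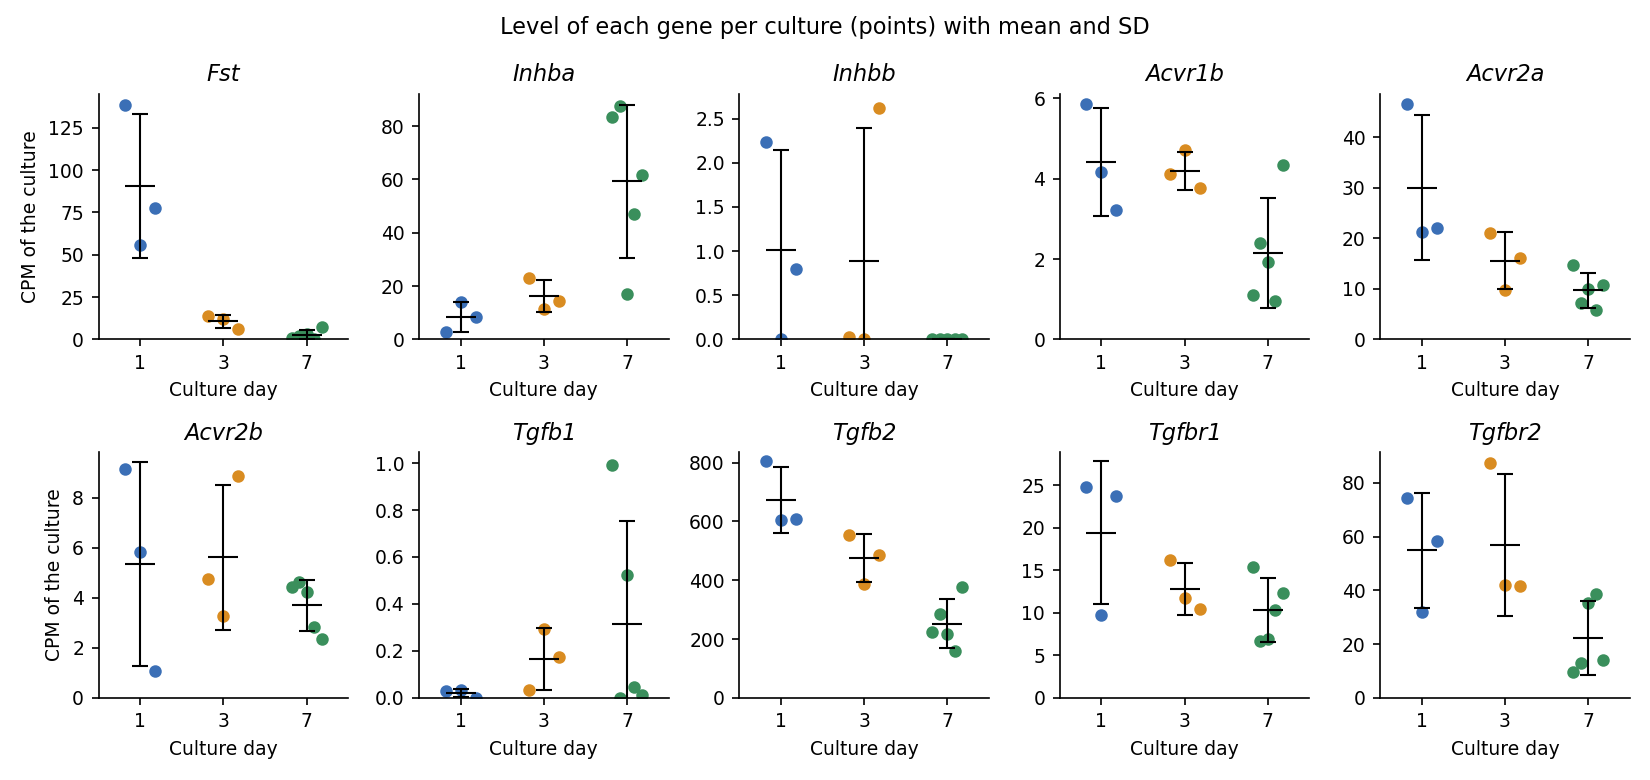
Level of the 10 genes in each of the 11 cultures, in CPM on a linear axis that starts at 0, by culture day; points are cultures, the long bar is the mean and the error bar the SD (n = 3, 3 and 5). Day 1 cultures had 55.6 to 138.3 CPM of Fst and Day 7 cultures 0.206 to 7.21 CPM, and Inhba ranged from 2.61 to 14.1 CPM on Day 1 and from 17.1 to 87.4 CPM on Day 7.

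Inhba (chr13:16011851-16031621, plus strand) encodes the βA subunit of activin A. Its level was 2.61, 14.1 and 8.56 CPM in the Day 1 cultures, 23.04, 11.4 and 14.2 CPM on Day 3, and 83.3, 87.4, 17.1, 46.96 and 61.5 CPM on Day 7. Every Day 7 culture was above every Day 1 culture, whereas Day 3 overlapped both days, since its highest culture was above Day 7 culture 3. The means were 8.43 ± 5.76, 16.2 ± 6.06 and 59.3 ± 28.7 CPM (SD, n = 3, 3 and 5). From Day 1 to Day 7 Inhba rose by 2.81 on the log2 scale (SE 0.61, edgeR adjusted p = 0.0185). Against Day 3 the Day 7 difference was 1.87 (edgeR adjusted p = 0.186), and Day 3 against Day 1 did not pass either. The Day 7 call did not pass without Day 1 culture 1 (edgeR adjusted p = 0.0671), without Day 1 culture 3 (0.0661) or with the replicate number as a block (0.0589).

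More cells had a read of Inhba on later days. To compare cells of unequal depth, each was thinned to 200000 reads, which kept 96.2%, 97.4% and 99.003% of the retained cells of Days 1, 3 and 7. The mean share of cells with a read was 15.1% ± 3.19 on Day 1, 27.9% ± 5.73 on Day 3 and 62.9% ± 19.3 on Day 7 (SD over 3, 3 and 5 cultures). In single cultures the share was 13.5%, 18.8% and 13.2% on Day 1, 34.5%, 24.2% and 25% on Day 3, and 89.7%, 75.7%, 42.03%, 52.6% and 54.7% on Day 7. The shares of the 3 days did not overlap. The level within cells that had a read also differed: the median at full depth was 30.8, 29.6 and 57.6 CPM over the 3 days, and 6, 7 and 57 cells exceeded 100 CPM. On Day 1 the 19 highest cells held 96.2% of the Inhba reads, and on Day 7 the 31 highest held 53.1%.

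**Figure D2:**
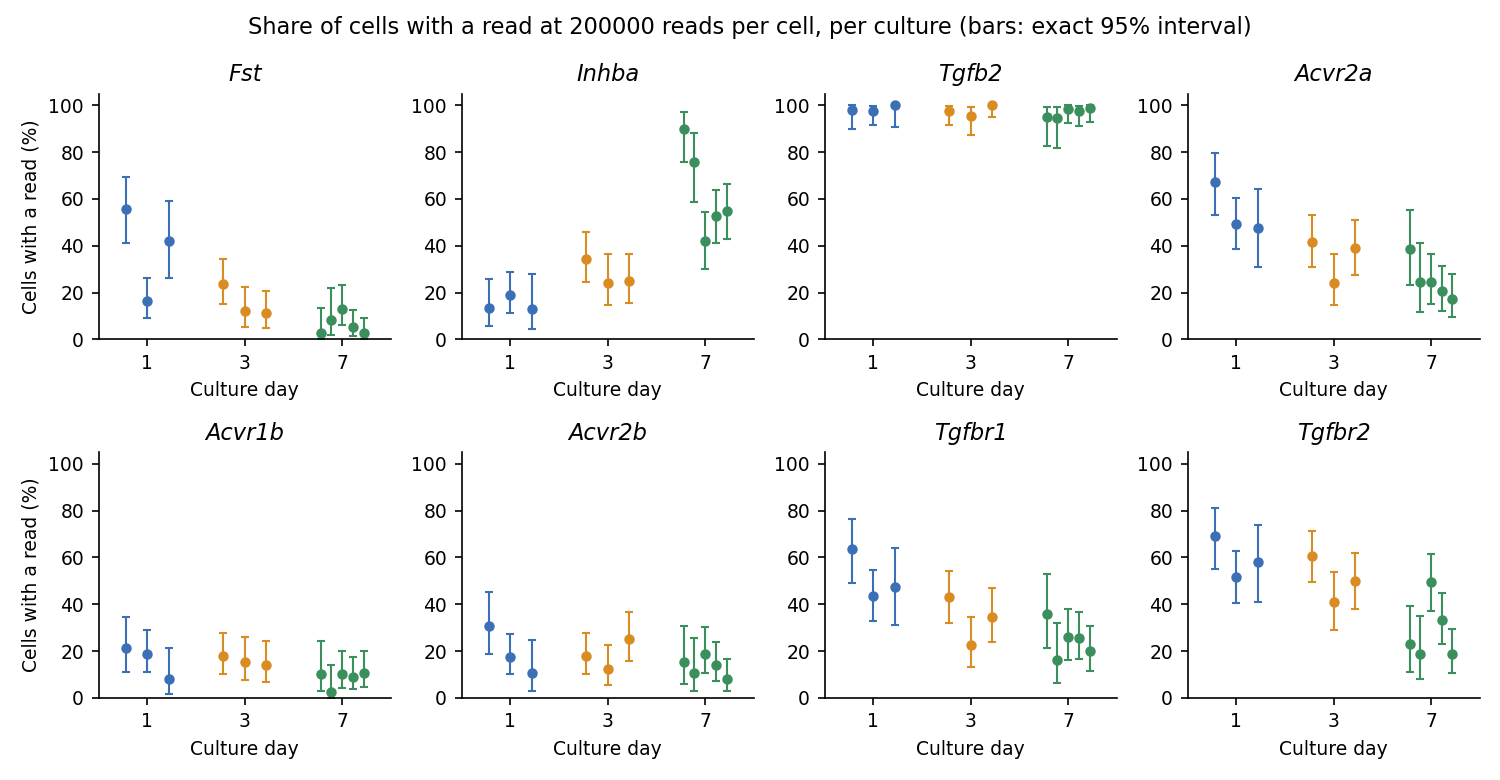
Share of cells with a read (%, 0 to 100) after thinning each cell to 200000 reads, per culture and day, for 8 of the 10 genes; bars are exact (Clopper-Pearson) 95% intervals, which cover counting error only. Inhba climbs from at most 18.8% of cells in a Day 1 culture to at least 42.03% in a Day 7 culture, and Tgfb2 was read in at least 94.6% of the cells of each culture.

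Inhbb, which encodes the βB subunit of activin B, was read in few cells. Its level was 2.24, 0 and 0.795 CPM in the Day 1 cultures, 0.0314, 0 and 2.62 CPM on Day 3, and 0 in the 5 Day 7 cultures. In all, 98 reads came from 2 Day 1 cells, 77 of them from 1 cell, and the Day 3 reads came from 4 cells, 62.04% of them from 1. At 200000 reads per cell it was read in 0 of the Day 7 cells, which allows a share of up to 1.01% of cells with a read. Against a floor of 3 reads over the 5 Day 7 cultures, the level was at least 68.6-fold higher on Day 1 and at least 71.6-fold higher on Day 3. The first bound was 20.4-fold without Day 1 culture 1 and 140.01-fold without Day 1 culture 2. The second was 114.3-fold without Day 3 culture 1, and without Day 3 culture 3 only 2 reads were left, which is under the floor and gives no fold. Neither comparison with Day 7 was called (edgeR adjusted p = 0.0917 against Day 1), and cultures of every day included one at 0.

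Tgfb2 (chr1:186622792-186705989, minus strand) encodes the ligand TGFβ2 and was by length the most abundant member on each day. Its level was 804.2, 605.6 and 609.4 CPM in the Day 1 cultures, 553.4, 388.3 and 485.01 CPM on Day 3, and 224.7, 286.3, 216.3, 159.6 and 375.9 CPM on Day 7. All cultures of a day were below all cultures of the preceding day. The means were 673.05 ± 113.6, 475.6 ± 82.96 and 252.5 ± 82.3 CPM (SD, n = 3, 3 and 5). Tgfb2 fell by 1.41 on the log2 scale (SE 0.24, edgeR adjusted p = 0.00636) from Day 1 to Day 7, and the fall passed the test without any 1 culture. Day 3 against Day 1 was -0.50 (edgeR adjusted p = 0.643) and Day 7 against Day 3 was -0.91 (edgeR adjusted p = 0.117).

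Tgfb2 was read in nearly all cells on each day, namely in 98.6%, 97.7% and 96.8% of cells on average over the cultures of Days 1, 3 and 7. The median cell had 631.99 CPM on Day 1, 325.6 CPM on Day 3 and 198.2 CPM on Day 7. No single cell held more than 2.27% of a day's Tgfb2 reads.

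Tgfb1, the gene of TGFβ1, was at the limit of detection. It had 3 reads in the 3 Day 1 cultures, 26 on Day 3 and 65 on Day 7, which is 0.0202 ± 0.0176, 0.166 ± 0.131 and 0.315 ± 0.437 CPM (SD, n = 3, 3 and 5). The Day 7 cultures had 0.991, 0, 0.524, 0.0442 and 0.0134 CPM, so that cultures 1 and 3 held most of the reads. The Day 7 to Day 1 ratio was 10.3 with a counting interval of 3.38 to 51.3, and 5.98 (1.87 to 30.5) without Day 7 culture 1. In the second of the 2 deposited files, whose only Day 7 culture is culture 5, the log2 fold change was -0.38. It was called in none of the comparisons (edgeR adjusted p = 0.273, Day 7 against Day 1). After thinning, 0 of the Day 1 cells had a read, which allows a share of up to 1.71%, beside 5 cells of Day 3 and 6 of Day 7.

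Fst, the activin antagonist, fell the most of the 4 called members. Its level was 138.3, 55.6 and 77.8 CPM in the Day 1 cultures, 13.97, 11.7 and 6.29 CPM on Day 3, and 0.96, 1.85, 3.22, 0.206 and 7.21 CPM on Day 7. Day 1 cultures were all above the other cultures, and Day 7 culture 5 was above Day 3 culture 3. The means were 90.6 ± 42.8, 10.7 ± 3.95 and 2.69 ± 2.76 CPM (SD, n = 3, 3 and 5). Fst fell by 5.06 on the log2 scale from Day 1 to Day 7 (SE 0.79, edgeR adjusted p = 0.0039), and it passed without any 1 culture.

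By Day 3 none of the members was called, where 0.0115% of all tested genes were. The Day 3 difference of Fst was -3.08 (SE 0.89, edgeR adjusted p = 0.283). Among the members Fst alone had an unadjusted p under 0.05 (0.00436), which 9.26% of all tested genes had. Fst, Acvr2a and Tgfb2 were lower in all Day 3 than in all Day 1 cultures, and 8.11% of all tested genes were. Between Day 3 and Day 7 none of the members was called, where 0.968% of tested genes were, and Fst differed by -1.97 (edgeR adjusted p = 0.28). In that comparison Fst, Inhba, Inhbb, Tgfb2 and Tgfbr2 had an unadjusted p under 0.05, as did 11.8% of tested genes.

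Fst reads sat in a minority of cells. The mean share of cells with a read, at 200000 reads per cell, was 38.1% ± 19.95 on Day 1, 15.7% ± 7.06 on Day 3 and 6.30% ± 4.40 on Day 7 (SD over 3, 3 and 5 cultures). Day 1 culture 2 was low, at 16.5% of cells against 55.8% and 42.1% in the other two, and overlapped Day 3 culture 1 at 23.8%. Cells above 100 CPM numbered 28 on Day 1, 10 on Day 3 and 1 on Day 7. On Day 7, 1 cell of culture 5 held 64.2% of the 819 Fst reads, and the log2 fold change without that culture was -5.86 (edgeR adjusted p = 0.00191). Inhba was read in cells with and without a Fst read, counted over the pooled thinned cells of a day. It was read in 11.9% of Day 1 cells with a Fst read and 18.1% of the others. These shares were 38.9% and 26.3% on Day 3, and 57.9% and 58.4% on Day 7.

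The balance of follistatin to activin subunits was taken as the log2 ratio of Fst to Inhba plus Inhbb, in CPM per kilobase of exon with 0.5 added to each side. The ratio was 4.42, 2.22 and 3.11 in the Day 1 cultures, -0.21, 0.42 and -0.84 on Day 3, and -4.26, -3.97, -1.41, -3.85 and -2.29 on Day 7. The 3 days did not overlap, and all Day 1 cultures had more Fst while all Day 7 cultures had more activin subunit reads. The difference of means was -6.40 between Day 7 and Day 1 (exact two-sided permutation test, p = 0.0179, adjusted over 3 pairs of days 0.0536). It was -2.94 between Day 7 and Day 3 (exact p = 0.0357, adjusted 0.0536) and -3.46 between Day 3 and Day 1 (exact p = 0.1, the smallest that 3 against 3 cultures allow). None passed after adjustment, and 0.0179 is the smallest p that 3 against 5 cultures can give. Without Day 7 culture 3, the Day 7 culture with the highest ratio, both differences from Day 7 passed (-6.84 against Day 1 and -3.38 against Day 3, exact permutation test, adjusted p = 0.0429 for each), and without any 1 of the other cultures none did.

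**Figure D3:**
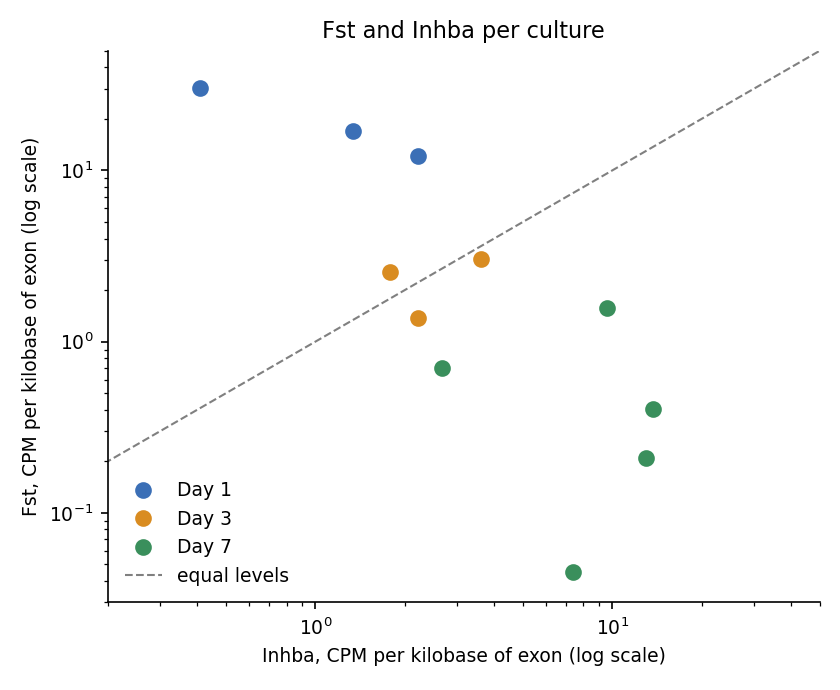
Fst against Inhba in each culture, both in CPM per kilobase of exon on log axes, coloured by day; the dashed line marks equal levels. Day 1 cultures lie above the line and Day 7 cultures below it, and the 3 Day 3 cultures lie close to it.

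Acvr2a (chr2:48814109-48903269, plus strand) encodes a type II receptor that binds activins. Its level was 46.6, 21.3 and 22.1 CPM in the Day 1 cultures, 20.98, 9.73 and 16.02 CPM on Day 3, and 14.7, 7.19, 9.92, 5.87 and 10.8 CPM on Day 7. Day 1 cultures were above all others, by a narrow margin over Day 3 culture 1. The means were 30.01 ± 14.4, 15.6 ± 5.64 and 9.71 ± 3.44 CPM (SD, n = 3, 3 and 5). Acvr2a fell by 1.63 on the log2 scale from Day 1 to Day 7 (SE 0.38, edgeR adjusted p = 0.0254). Without Day 1 culture 1 the fold change was -1.22 and did not pass (edgeR adjusted p = 0.13). The share of cells with a read was 54.7% ± 10.97, 34.9% ± 9.36 and 25.1% ± 8.07 (SD over 3, 3 and 5 cultures).

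Acvr2a shares 7.84% of its exon bases with Orc4 on the other strand. The strand setting of the counting is not given in the sources used here, so reads of that stretch could belong to either gene. The share of Acvr2a reads from that stretch was not measured and can be larger than its share of bases. The value of Acvr2a is therefore uncertain by an unknown amount. Orc4, an origin recognition complex gene, had 27693 reads against 8650 of Acvr2a and rose by 0.71 (edgeR adjusted p = 0.0327) from Day 1 to Day 7, the other direction. Fst shares 2.51% of its exon bases with an antisense gene that had 75 reads, and Tgfb2 shares 2.14% with one that had 23 reads.

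The other activin receptors were low and were not called. Acvr2b, the second type II receptor, had 9.15, 5.82 and 1.06 CPM on Day 1, 4.74, 3.26 and 8.85 CPM on Day 3, and 4.43, 4.62, 4.23, 2.84 and 2.34 CPM on Day 7, and the days overlapped. Acvr1b, the type I activin receptor, had 5.87, 4.17 and 3.22 CPM, then 4.13, 4.71 and 3.77 CPM, then 1.12, 2.41, 1.93, 0.957 and 4.35 CPM. Day 7 culture 5 kept Acvr1b within the range of Days 1 and 3, and the other 4 Day 7 cultures were below it. For Day 7 against Day 1 the log2 fold change was -0.54 for Acvr2b (edgeR adjusted p = 0.656) and -1.04 for Acvr1b (edgeR adjusted p = 0.306).

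The TGFβ receptor genes had higher levels per kilobase than those 2 and were not called either. Tgfbr2, the type II receptor of TGFβ ligands, had 74.5, 32.002 and 58.3 CPM on Day 1, 87.5, 41.95 and 41.6 CPM on Day 3, and 9.60, 12.97, 35.3, 38.7 and 14.02 CPM on Day 7. All Day 7 cultures were below all Day 3 cultures, which 5.14% of tested genes were, and 2 of them overlapped Day 1. Its log2 fold change was -1.31 against Day 1 (edgeR adjusted p = 0.11) and -1.36 against Day 3 (edgeR adjusted p = 0.242). Tgfbr1, the type I receptor, had 24.8, 9.75 and 23.7 CPM on Day 1, 16.3, 11.8 and 10.4 CPM on Day 3, and 15.4, 6.63, 6.86, 10.3 and 12.3 CPM on Day 7. Its days overlapped, with a log2 fold change of -0.91 (edgeR adjusted p = 0.168) from Day 1 to Day 7. The mean share of cells with a Tgfbr2 read went from 59.6% on Day 1 to 50.5% and 28.7%, and that of Tgfbr1 from 51.5% to 33.4% and 24.8%.

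Levels of different genes were compared per kilobase of exon. On Day 1 the order was led by Tgfb2 with 116.2 CPM per kilobase and Fst with 19.7, followed by Tgfbr2 with 6.71, and Inhba was 7th with 1.32. Tgfb2 did not overlap Fst, nor Fst Tgfbr2, and from Tgfbr2 down to Acvr1b each gene overlapped the next. On Day 3 Tgfb2 (82.1) and Tgfbr2 (6.97) led, and Acvr2a (2.74), Inhba (2.54) and Fst (2.32) overlapped one another in turn. On Day 7 Tgfb2 (43.6) was followed by Inhba (9.28), whose cultures overlapped those of Tgfbr2 (2.70) in 3rd place, and Fst was 7th with 0.586. Inhbb and Tgfb1 were the lowest 2 on each day.

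Dividing cells were compared with the rest of the same culture, since cycle genes differed between the days. Cells with a read of at least 3 of 6 cycle genes after thinning were counted as cycling, and made up 20.04% ± 4.30 of Day 1, 59.8% ± 6.12 of Day 3 and 57.5% ± 24.2 of Day 7 cells (SD over 3, 3 and 5 cultures). Tgfb2 was lower in the cycling cells in 11 of 11 cultures, as were 1.27% of all tested genes. Its mean was 716.6 CPM in non-cycling and 553.9 CPM in cycling cells on Day 1, 708.6 and 307.2 CPM on Day 3, and 410.4 and 161.1 CPM on Day 7. Between Day 1 and Day 3 the Tgfb2 mean thus differed by -0.02 on the log2 scale in non-cycling cells and by -0.85 in cycling cells. Between Day 1 and Day 7 it differed by -0.80 and -1.78. These are descriptions of the same cultures without a test, in CPM of the summed cells without scaling between cultures.

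Mean Fst was lower and mean Inhba higher on Day 7 than on Day 1 in both kinds of cell. In non-cycling cells Inhba overlapped between these days, with 15.8 CPM in Day 1 culture 2 and 14.8 CPM in the 9 such cells of Day 7 culture 3. The log2 ratio of Day 7 to Day 1 means was -5.08 in non-cycling and -5.06 in cycling cells for Fst, and 2.80 and 3.61 for Inhba. For Acvr2a it was -1.79 and -0.94. Acvr2b was higher in cycling cells in 10 of 11 cultures, as were 7.49% of tested genes, and its only exception was Day 7 culture 5. Its means were 4.28 and 11.04 CPM in non-cycling and cycling Day 1 cells, 2.42 and 8.10 CPM on Day 3, and 1.46 and 4.61 CPM on Day 7. The reads of Inhbb at these depths came from non-cycling cells alone.

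**Figure D4:**
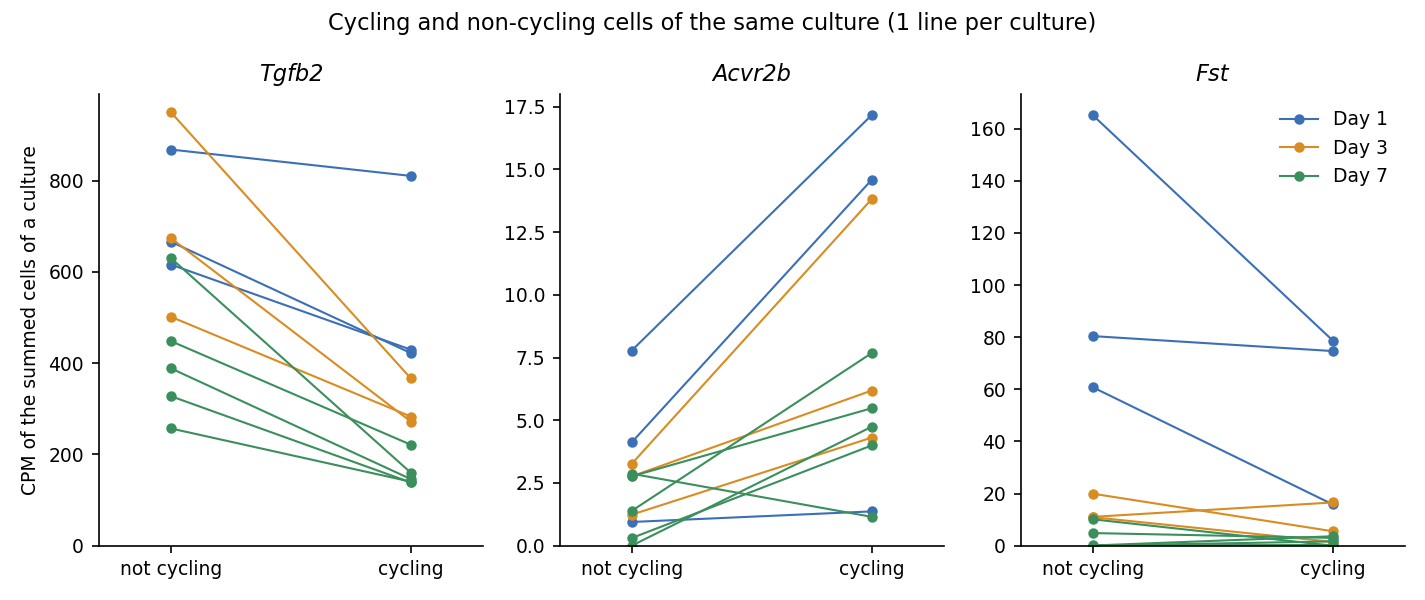
CPM of Tgfb2, Acvr2b and Fst in the summed non-cycling and cycling cells of each culture, on linear axes that start at 0; each line is 1 culture, coloured by day. All 11 lines go down for Tgfb2, 10 of 11 go up for Acvr2b, and for Fst 7 of 11 go down.

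Genes whose level across the 11 cultures was most like that of a called member were taken by Pearson's r of log2 CPM among 7305 genes with a mean of at least 20 CPM on 1 day or more, predicted and mitochondrial genes left out. The r is a description, since the cultures share their days. For Fst these were Sdc2 (0.98), Tgfb2 (0.94), Sparc (0.93), Adamts2 (0.93) and Lgals1 (0.93). Sdc2 encodes a cell-surface heparan sulfate proteoglycan and Sparc a matrix glycoprotein. For Tgfb2 they were Adamts2 (0.98), Sparc (0.96), Fst (0.94), Tacc2 (0.94) and Muc15 (0.92), so that Adamts2, the procollagen N-proteinase, and Sparc are on both lists. For Inhba they were Glt8d1 (0.95), Dars (0.95), Papss1 (0.95), Junb (0.95) and Ak3 (0.94), and Junb, a subunit of the AP-1 transcription factor, had 34.6 ± 18.98, 49.6 ± 8.39 and 143.7 ± 60.98 CPM (SD, n = 3, 3 and 5). For Acvr2a they were Slco5a1 (0.94), Rtn4 (0.93), Igf1r (0.92), Sdk1 (0.91) and Arhgef5 (0.90), of which Igf1r is the receptor of IGF1 in the medium.

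The wider pathway was read from a list of 58 other genes. Of 9 other ligands 4 were tested and none was called in any comparison. TGFβ3 is the remaining TGFβ ligand, and its gene Tgfb3 averaged 25.6 ± 3.83, 52.1 ± 35.7 and 47.4 ± 12.7 CPM over the 3 days (SD, n = 3, 3 and 5) and differed by 0.89 on the log2 scale from Day 1 to Day 7 (edgeR adjusted p = 0.183). Gdf11, an activin-like ligand, differed by -0.57 (edgeR adjusted p = 0.411). Of 7 other receptors and co-receptors 3 were tested and none was called, with Bambi, a pseudoreceptor that dampens TGFβ signalling, at -0.44 (edgeR adjusted p = 0.498) and the type I receptor gene Acvr1 at -0.64 (edgeR adjusted p = 0.502).

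Among extracellular binders and activators 13 of 16 were tested, and 2 fell and none rose from Day 1 to Day 7. Of all tested genes 3.56% fell and 3.55% rose. The median log2 fold change of the 13 was -0.87. Both that fell encode latent TGFβ binding proteins, which hold TGFβ in the matrix. Ltbp1 had 257.9, 48.7 and 58.4 CPM on Day 1 and 7.65 to 44.9 CPM on Day 7, a fall of -2.25 (log2, SE 0.62) with an edgeR adjusted p of 0.0471. It was also called without Day 3 culture 1 and without Day 7 culture 4, but not without any 1 of the other 9 cultures, where the adjusted p reached 0.314 without Day 1 culture 1. Ltbp3 had 85.2, 59.6 and 60.5 CPM on Day 1 and 21.6 to 41.3 CPM on Day 7 (-1.20, edgeR adjusted p = 0.0179), which did not pass without Day 1 culture 1. Ltbp4 was lower on Day 3, at 18.4 ± 1.80 CPM, and at 43.8 ± 7.56 CPM on Day 7 (SD, n = 3 and 5) it had risen by 1.25 against Day 3 (edgeR adjusted p = 0.0193), which did not pass without Day 3 culture 2 or without Day 3 culture 3. Ltbp2 had no read on Day 1 and 310 on Day 7, at least 49.2-fold higher against a floor of 3 reads over the Day 1 cultures, and was not called. On Day 7 it was at 0 in cultures 2 and 3, at 0.0620 CPM in culture 1 and at 3.003 and 1.39 CPM in cultures 4 and 5. The bound was 22.7-fold without Day 7 culture 4 and 24.1-fold without Day 1 culture 2.

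Of the 12 SMADs and their regulators, 11 were tested and, beside 3.56% of all tested genes, 1 fell from Day 1 to Day 7. This was Ppm1a, a phosphatase of SMAD2 and SMAD3, with 68.6, 45.2 and 43.8 CPM on Day 1 and 25.5 to 32.4 CPM on Day 7 (log2 fold change -0.88, edgeR adjusted p = 0.0283). It missed the threshold when Day 1 culture 1 or 2, or Day 7 culture 2 or 3, was left out. Ski, a co-repressor of SMADs, was next with -0.88 (edgeR adjusted p = 0.078). The median of the 11 was -0.14.

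All 14 target genes described here were tested, of which 3 fell and none rose between Day 1 and Day 7, with a median log2 fold change of -0.55. Of all tested genes 3.56% fell and 3.55% rose. Postn, the matrix protein periostin, had 5.52, 0.822 and 8.90 CPM on Day 1, 19.1, 7.29 and 5.75 CPM on Day 3, and 0 in 4 Day 7 cultures and 0.0736 CPM in culture 4. It fell against Day 1 (log2 fold change -7.97, edgeR adjusted p = 0.00306) and against Day 3 (-9.04, edgeR adjusted p = 0.00611). Tagln, the actin-binding protein transgelin, likewise fell against both, by -6.14 and -6.80 (edgeR adjusted p = 0.00453 and 0.00983). Cdkn2b, a cyclin-dependent kinase inhibitor, fell against Day 1 (-4.11, edgeR adjusted p = 0.0319), and Acta2, smooth muscle actin, against Day 3 (-8.50, edgeR adjusted p = 0.0398). Between Day 3 and Day 7, 0.968% of all tested genes were called. The calls of Postn and Tagln held without any 1 culture. Cdkn2b missed the threshold when Day 1 culture 1 or 2, or Day 7 culture 1, 2 or 3, was left out. Of the 11 fits that left out 1 culture, Acta2 was called in those without Day 3 culture 3 or Day 7 culture 4.

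The reads of these target genes came from few cells. Postn was read in 8, 31 and 3 retained cells of Days 1, 3 and 7, Tagln in 24, 29 and 7, Acta2 in 3, 6 and 2, and Cdkn2b in 35, 36 and 12. Mesenchymal cells also express Postn, Tagln and Acta2. The summed mesenchyme markers given above ranged up to 44.4 CPM in Day 3 culture 3, where Postn was at 5.75, Tagln at 10.99 and Acta2 at 0 CPM. Col3a1, Pdgfra and Tbx18 were at 0 on Day 1 and Col3a1 at 0 on Day 7. Of the 4 of these 7 markers that were tested, the collagen gene Col1a2 fell from Day 1 to Day 7 (log2 fold change -5.37, edgeR adjusted p = 0.0352) and was read in 21.98%, 2.63% and 1.33% of retained cells of Days 1, 3 and 7. Twist1, a transcription factor gene, rose (8.21, edgeR adjusted p = 0.00707). Between Day 1 and Day 7 Col1a2 thus moved in the direction of Postn and Tagln, and Twist1 in the other. Between Day 1 and Day 3 the log2 fold change was -2.75 for Col1a2, 5.50 for Twist1, 1.08 for Postn and 0.66 for Tagln, none of them called. The part of such cells in these differences was not tested. Ctgf, a matricellular protein gene and the most abundant of the 5 targets with a positive fold change, had 812.7 ± 307.7, 926.6 ± 442.3 and 2303 ± 1193 CPM (SD, n = 3, 3 and 5) and was not called (edgeR adjusted p = 0.11).

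**Figure D5:**
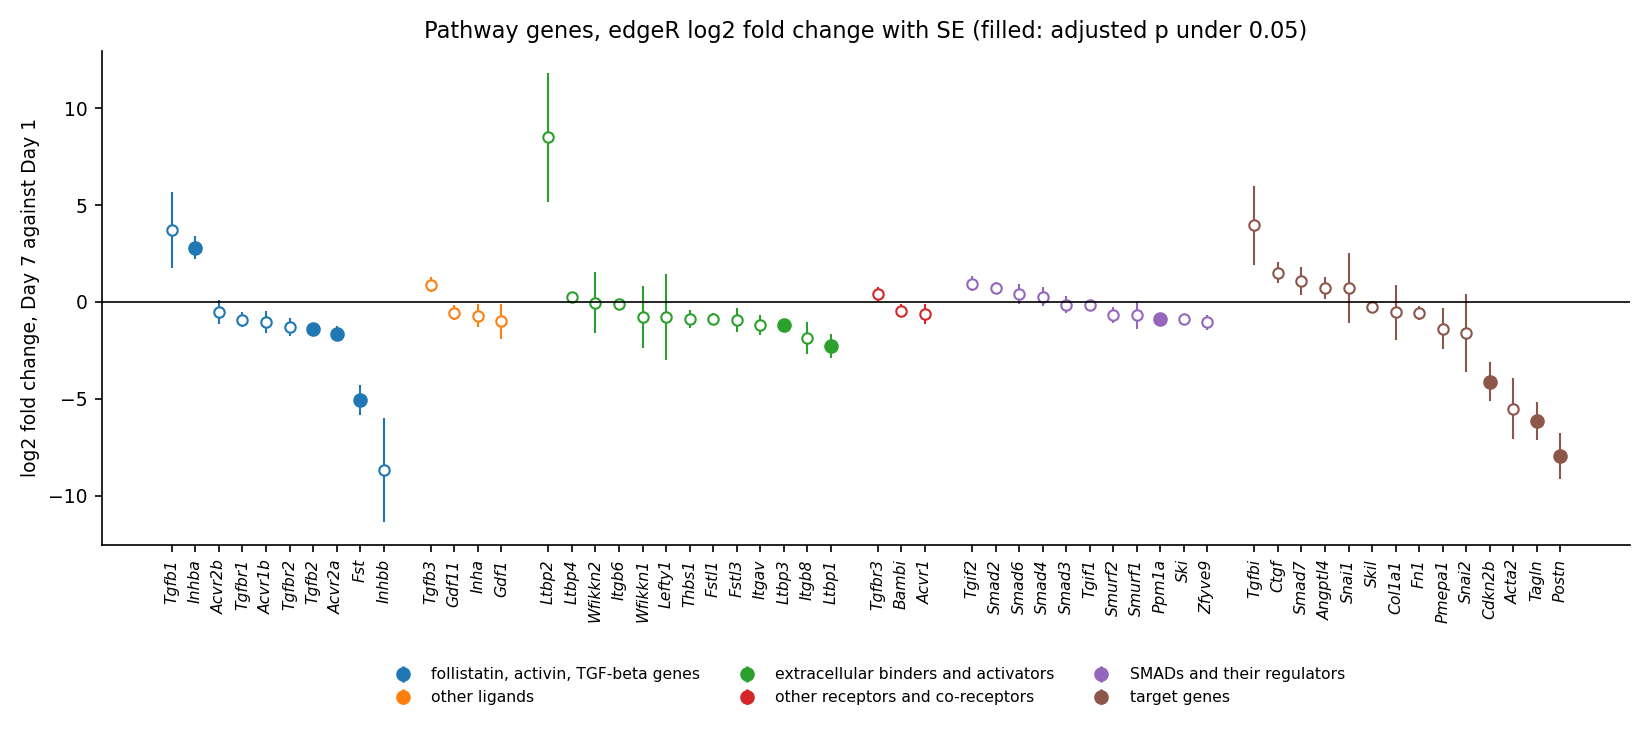
Log2 fold change of Day 7 against Day 1 (edgeR, with SE bars) for the 10 genes and the tested genes of the wider list, grouped and ordered by fold change; filled points have an adjusted p under 0.05. Among the called genes only Inhba lies above 0, and the fitted values of genes with no reads on a day, such as Inhbb and Ltbp2, are no bounds.

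The deposited data came in 2 files, which may mark a batch. The first held Day 1 culture 1, Day 3 culture 1 and Day 7 cultures 1 to 4, and the second the other 5 cultures, so that Day 1 and Day 3 have 1 culture each in the first file and Day 7 has 1, culture 5, in the second. A lone culture is assumed to vary like the rest. Within the first file the log2 fold change of Day 7 against Day 1 was -6.50 for Fst (edgeR adjusted p = 0.11), 4.43 for Inhba (0.186), -2.35 for Acvr2a (0.166) and -1.91 for Tgfb2 (0.106). Within the second file it was -3.21 for Fst (edgeR adjusted p = 0.0488), 2.44 for Inhba (0.0586), -0.999 for Acvr2a (0.431) and -0.69 for Tgfb2 (0.276). The direction of all 4 was the same in both files. The second-file value of Fst rests on Day 7 culture 5, in which 1 cell held most of the Day 7 reads of Fst, as given above. With the file as a term in the fit all 4 were called, at edgeR adjusted p of 0.00771, 0.0361, 0.0221 and 0.0127 in that order.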

How the data were processed

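Single-cell SmartSeq2 libraries of 768 cells were used. The authors deposited expected counts (reads per gene and cell, not normalised) in 2 files of 384 cells, which were not whole for 10.6% of the values above 0 and were rounded here. The submitters' processing notes name STAR 2.5.3a, RSEM 1.3.0, mm10 and GRCm38, without roles. Retained were 711 cells (182, 228 and 301 of Days 1, 3 and 7), of which 175, 222 and 298 had the 200000 reads for thinning. Counts of retained cells were summed per culture, leaving out 92 spike-ins and 4 transgenes (0.0045% of reads). All 11 cultures entered 1 fit in edgeR 4.0.16 (R 4.3.3; TMM scaling, filterByExpr by day, quasi-likelihood F-test, day as the only term), and p-values were Benjamini-Hochberg adjusted over 17466 genes with a threshold of 0.05. The procedure was tested on simulated data. The Fst ratio was tested with scipy 1.17.1. Gene coordinates and exon lengths are from GENCODE M21 (GRCm38), where Fst and Acvr1b have another gene version than in the tables. They carry no coordinates here, and the exon length of that version was used. SmartSeq2 reads carry no molecular identifiers, and intervals and floors therefore cover only counting error.

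The members and the lists were chosen with earlier results of these data known. Named are all members, the 2 genes of each wider list with the smallest adjusted p for Day 7 against Day 1, every gene of these lists called in any comparison, and for each called member the 5 genes most like it. In the list of target genes 1 gene is not reported here and is left out of the list's counts. Ltbp2, Ctgf and Orc4 were named after their values were seen. Alternatives were DESeq2 1.42.0, limma 3.58.1 on log2(mean CPM per cell + 1), no filter on low genes, all cells, the file as covariate or alone, the replicate number as a block, and each culture left out.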

Additional observations from a re-analysis of the deposited data

How the results depend on the processing

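The calls of members for Day 7 against Day 1 were tried under 19 alternatives. Fst was called in 18 (adjusted p 3.97e-07 to 0.11), Tgfb2 in 17 (7.86e-07 to 0.276), Acvr2a in 16 (0.000713 to 0.431) and Inhba in 14 (3.2e-06 to 0.186), with the direction kept in all 19 for these 4. The number of the 10 members called was 4 in the reported fit, 6 with DESeq2, 3 with the replicate block, 0 in the first file alone and 1 in the second, and 2 to 4 with 1 culture left out. For Day 7 against Day 3 it was 2 with DESeq2 and 0 to 1 with 1 culture left out, against 0 as reported, and for Day 3 against Day 1 it was 0 throughout. In percent of the genes tested in each fit, genes called for Day 3 against Day 1 were 0.01145% as reported, 1.59% with DESeq2, 0.395% with limma, 0.0495% with no filter on low genes, 0 and 0.0945% within the first and second file, and 0 to 0.0288% with 1 culture left out. For Day 7 against Day 1 they were 7.11% as reported, 13.98% with DESeq2, 0.0794% and 0.656% within the files, and 2.39% to 8.02% with 1 culture left out. For Day 7 against Day 3 they were 0.968% as reported, 3.85% with DESeq2, 0.584% with the file as covariate, 0 and 0.105% within the files, and 0.189% to 1.011% with 1 culture left out. The cause of these differences was not tested, except that a fit within a file has fewer cultures.

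The replicate numbers of the labels were tried as a block, where 0.126%, 5.90% and 0.5496% of genes tested were called (Day 3 and then Day 7 against Day 1, and Day 7 against Day 3), and Inhba no longer passed for Day 7 against Day 1 (log2 fold change 2.75, adjusted p = 0.0589). Same-numbered cultures of different days had correlations of their deviations of -0.01 to 0.06. No value was over 0.1 and the labels do not say that a number marks a shared source, so the numbers were not taken as pairs. The highest correlation was with the own number in 14 of 18 cases, namely in 12 of 12 between Day 1 and another day and in 2 of 6 between Days 3 and 7. These cases count each pair of cultures from both sides. Culture 1 of each day is in the first file, so number and file go together in part. This is at most a hint of pairing, from the data and not from the design, and the part of the file was not tested.

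Some members changed sign. For Day 3 against Day 1 these were Inhbb with the file as covariate (0.0948) and in the second file (1.73), Acvr1b with limma (0.18) and in the second file (0.18), Acvr2b with DESeq2 (-0.0053), all cells (-0.12) and in the first file (-0.99), and Tgfbr2 with DESeq2 (-0.0275), limma (-0.0913) and in the second file (-0.13). In the second file alone Acvr1b (0.24) and Tgfb1 (-0.38) changed sign for Day 7 against Day 1, and Acvr1b (0.0603), Tgfb1 (-3.89) and Tgfbr1 (0.17) for Day 7 against Day 3. With 1 culture left out, the range for Day 3 against Day 1 was -5.76 to 1.13 for Inhbb, -0.25 to 0.14 for Acvr1b, -0.41 to 0.65 for Acvr2b and -0.42 to 0.29 for Tgfbr2, and for Day 7 against Day 1 it was -1.02 to 0.0218 for Acvr2b. No difference of these was called. The difference in the log2 ratio of Fst to activin subunits between Day 7 and Day 1 was -7.60 with a pseudocount of 0.1 and -4.57 with 2, with the same exact p, and -6.92 to -5.82 with 1 culture left out (adjusted exact p 0.0429 to 0.0857), and that between Day 7 and Day 3 was -3.38 to -2.63 (0.0429 to 0.0857). Of the 30 mean shares of cells with a read, 27 moved by less than 1 SD when cells were thinned to 100000 reads and 12 did when at least 5 reads were asked for. Inhbb and Tgfb1 were read in at most 4 and 8 cells of a day. For Day 7 against Day 1 Inhbb was called with DESeq2 (adjusted p = 0.022) and under none of its other 18 alternatives. Tgfb1 was called under none of its 17, and it missed the filter on low genes without Day 7 culture 1 or 3.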

Other observations

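Cells with a read of the ligand subunit gene and of a type II activin receptor gene were counted in the cells thinned to 200000 reads, pooled over the cultures of a day and therefore without a test. Acvr2a was read in 53.6% of the Day 1 cells with an Inhba read and in 54.4% of those without one. On Day 3 the shares were 38.1% and 34.6%, and on Day 7 they were 28.2% and 16.9%. Pooled shares also carry differences between cultures. Within single Day 7 cultures, Spearman's r of the thinned reads of Inhba and Acvr2a ran from -0.12 to 0.28. Cells with a Fst read also had an Acvr2a read in 55.9% of cases on Day 1, 47.2% on Day 3 and 42.1% on Day 7, against 53.4%, 33.3% and 22.2% of the cells without Fst. The Day 7 value rests on 19 cells with a Fst read, of which 8 had a read of Acvr2a. Within single Day 7 cultures, Spearman's r of Fst and Acvr2a ran from -0.08 to 0.31. Tgfb2 was read in 100% of the cells with a Fst read on each day and in 97.4%, 97.3% and 97.1% of the cells without one.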
